A study of Mus musculus with 36 samples.

Results

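Organoids of the mouse intestine were followed between 6 h and 24 h of treatment with an antagonist of the retinoid X receptors (RXR), named RXRi in the labels, and the 4 libraries taken at 24 h were compared with the 4 taken at 6 h. These 8 libraries, of 36 in the study, were chosen by the treatment in their labels. Intestinal organoids are spheres of gut epithelium that grow from stem cells in a gel and form the absorptive and secretory cells of the gut lining. The 2 cultures came from male littermates of the C57BL/6 strain, wild type and 8 weeks old, and RNA of each culture was purified in duplicate. The duplicates of a culture were averaged, so that n = 2 mice per group. All cultures started as single cells in medium with R-spondin, noggin and EGF plus a Wnt3a source, a ROCK inhibitor and the GSK3 inhibitor CHIR99021. On day 3 these last 3 additions were withdrawn and treatment began: RXRi at 5 µM, DMSO (taken here as the vehicle), or all-trans retinoic acid (atRA) or 9-cis retinoic acid (9cisRA), each at 10 µM. Both RXRi groups thus carried the antagonist, and the interval from 6 h to 24 h combines longer exposure with time in the changed medium. The same interval in DMSO (4 libraries per time) served as the background. The 0 h libraries were untreated, and each mouse gave a single culture, sampled as RNA pooled from 3 wells.

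RXR proteins are nuclear receptors that bind DNA mostly as heterodimers with other receptors. Partners include the retinoic acid receptors, the PPARs, LXR, the bile acid receptor FXR, the vitamin D receptor and the xenobiotic receptors PXR and CAR. Some pairs respond to ligands of either partner, and others mainly to the ligand of the partner of RXR. In the small intestine such pairs control genes of vitamin A handling, lipid transport, sterol export and bile acid recycling.

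Expression was measured as RPKM, reads per kilobase of gene, scaled by a divisor for each library. The 8 RXRi libraries held 24400000 to 30700000 reads (rounded) over the listed genes, and a single read on a gene 2000 bases long is worth 0.0169 to 0.0198 RPKM. Of 12652 listed genes, 11361 were tested. Absorptive cell markers were present (summed RPKM of 1865 to 2626 per library at 6 h). The 3 tested mesenchymal markers summed to 3.63 to 4.94 RPKM at 6 h and 3.43 to 4.67 at 24 h, and the 3 tested immune markers to 2.57 to 3.26 and 2.04 to 2.29. The defining markers Col1a1, Pdgfra and Ptprc were not in the table. Changes are differences in log2(RPKM + 0.5) ± SE; for genes with low RPKM these are smaller than the fold change of RPKM itself. Levels are means ± SD of the 2 mice. A gene is said to rise or fall where the Benjamini-Hochberg adjusted p of the limma test was below 0.05. The mean difference between the 2 mice was removed. The p-values thus measure how unevenly the cultures of the 2 mice differed from condition to condition, pooled over the 9 conditions of the study.

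Between 6 h and 24 h with RXRi, 3384 genes rose (29.8% of those tested) and 2744 fell (24.2%). The changes were mostly small: 4706 of the 6128 called genes moved by less than 1.5-fold, and the median size among called genes was 0.36 log2. At least 2-fold changes were found for 217 genes upward (1.91%) and 190 downward (1.67%). Of the 6128, 6126 moved the same way in both mice. All 4 libraries of one time lay beyond all 4 of the other at 399 of the 407 genes with 2-fold changes, beside 56.1% of all tested genes. The genes in these counts were chosen for their change in the same libraries, so high shares are built in and add no support. The balance of directions depended on scaling. The authors' divisor made the 24 h libraries hold 1.046 to 1.070 reads per unit of divisor, and the 6 h libraries 0.963 to 0.970. When values were scaled to read sums instead, the median of all genes moved from 0.016 to -0.101, with 2229 genes higher and 4370 lower (33.8% of calls upward, against 55.2%). With limma voom on the recovered reads the counts were 2230 and 4541.

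The largest rise was that of Tff1, a trefoil peptide of the gastric surface mucosa (chromosome 17, 31161395 to 31165277, GRCm38). Its RPKM was 30.7 and 25.0 (mouse 1) and 25.2 and 20.6 (mouse 2) at 6 h and 713 and 766 (mouse 1) and 723 and 697 (mouse 2) at 24 h. The 24 h libraries were all more than 20 times the highest 6 h library, a rise of 4.82 ± 0.095 log2 (adjusted p = 2.73e-12). In DMSO Tff1 rose from 15.3 ± 3.27 to 35.8 ± 0.886 RPKM, and the difference between the 2 time changes was 3.58 ± 0.13 (adjusted p = 3.27e-09).

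Ivl, which encodes involucrin of the cornified envelope (chromosome 3, 92570902 to 92573735), had 23.9 and 21.7 (mouse 1) and 36.4 and 33.7 (mouse 2) RPKM at 6 h and 264 and 267 (mouse 1) and 364 and 378 (mouse 2) at 24 h. Mouse 2 was the higher mouse at both times, and the times did not overlap (3.45 ± 0.17, adjusted p = 5.55e-09). With DMSO it changed by 0.63 ± 0.17. Npy, the gene of the peptide neuropeptide Y, stood near 0 at 6 h (0.0701 and 0.0609 (mouse 1) and 0.120 and 0.0639 (mouse 2) RPKM) and at 4.06 and 4.43 (mouse 1) and 4.40 and 5.60 (mouse 2) at 24 h. Its rise was 3.14 ± 0.12 (adjusted p = 6.74e-10), while the DMSO libraries had 0 and 0.141 (mouse 1) and 0 and 0.132 (mouse 2) RPKM at 6 h and 0 and 0.139 (mouse 1) and 0.134 and 0.0650 (mouse 2) at 24 h. At such low starting levels the size of the change is set in part by the constant of 0.5.

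Reg1, a secreted lectin-like protein of the gut, rose in both series but less with the antagonist. Its libraries had 3.75 and 4.51 (mouse 1) and 2.76 and 4.64 (mouse 2) RPKM at 6 h and 47.1 and 61.8 (mouse 1) and 83.7 and 53.5 (mouse 2) at 24 h with RXRi (3.80 ± 0.16), against a DMSO change of 5.79 ± 0.16 and a difference of -1.99 ± 0.22 (adjusted p = 1.66e-05). Zg16, a lectin of goblet cell granules, rose by 4.76 ± 0.24 with RXRi (4.09 ± 0.523 to 125 ± 32.0 RPKM) and by 4.49 ± 0.24 with DMSO. The difference for Zg16, 0.27 ± 0.34 (95% interval -0.46 to 1.00, adjusted p = 0.580), did not pass the test. Spink4, a protease inhibitor of goblet and Paneth cells, rose by 2.73 ± 0.15 and 2.53 ± 0.15. Slco2a1, a prostaglandin transporter, had 0.536 and 0.612 (mouse 1) and 0.465 and 0.488 (mouse 2) RPKM at 6 h and 6.79 and 6.53 (mouse 1) and 8.55 and 8.02 (mouse 2) at 24 h, a rise of 2.95 ± 0.11 against 0.90 ± 0.11 in DMSO.

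The other members of the 12 largest rises were Gm1123 (3.06 ± 0.10), the mast cell protease Mcpt1 (2.98 ± 0.11) with its pseudogene Mcpt-ps1 (2.72 ± 0.13), Chp2, a calcineurin-like partner of sodium-proton exchangers (2.79 ± 0.076), and Ctla2a, a cysteine protease inhibitor (2.73 ± 0.099). Mcpt1 and Mcpt-ps1 are similar in sequence, so the assignment of reads between them is uncertain. All 12 also rose in DMSO except Npy (0.044 ± 0.12, adjusted p = 0.777). Chp2 started from an unlike level: 3.70 ± 0.426 RPKM at 6 h with RXRi against 23.6 ± 6.15 with DMSO, and it ended at 28.6 ± 5.06 against 98.6 ± 14.6.

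**Figure D1:**
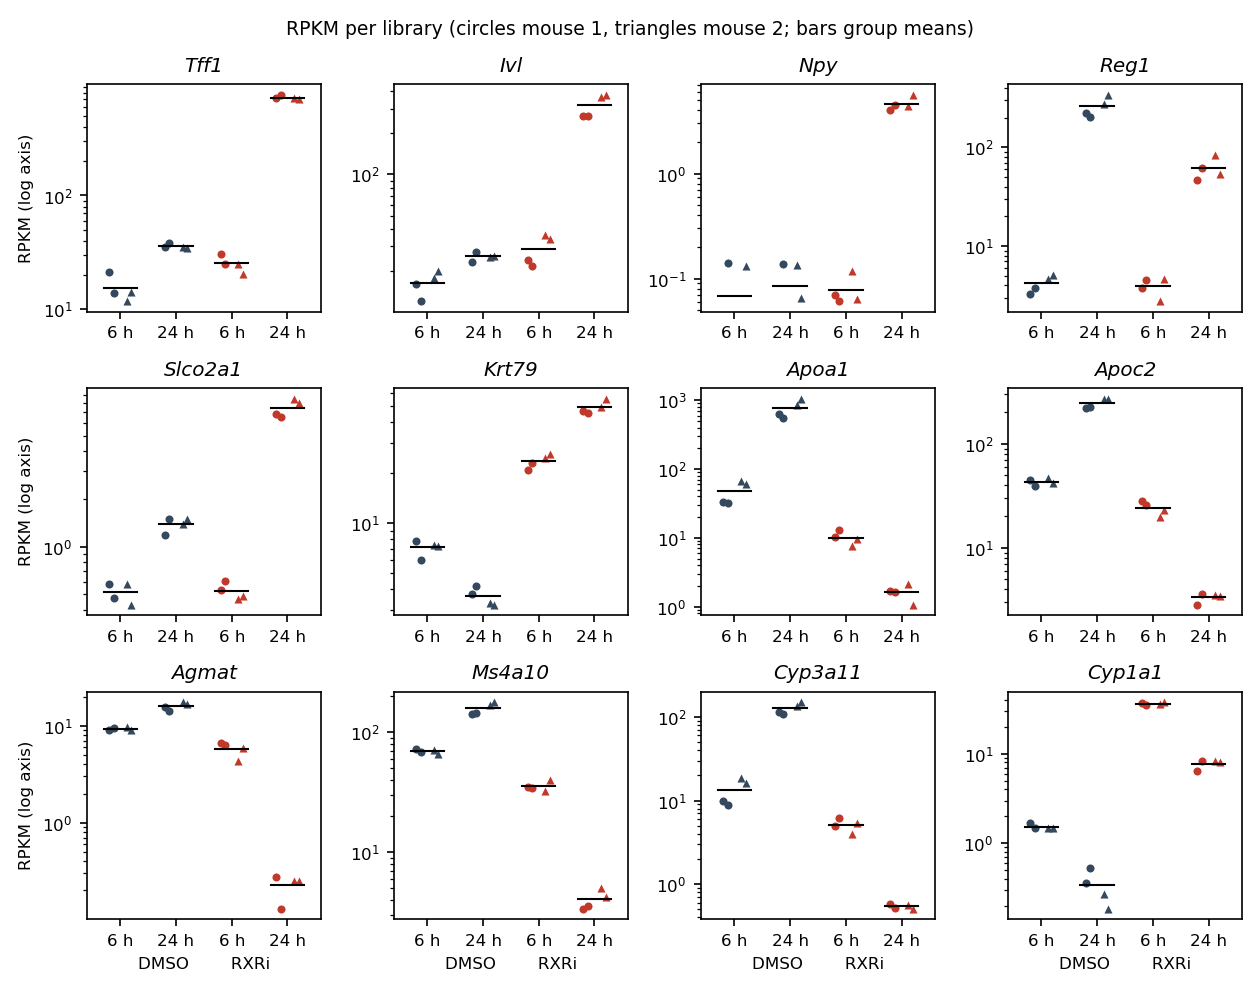
RPKM of 12 genes in each library on log axes, at 6 h and 24 h with DMSO (dark) and RXRi (red); circles are mouse 1, triangles mouse 2 and bars the mean of the mice, and Npy libraries with 0 RPKM are not drawn. The RXRi libraries of 24 h lie apart from those of 6 h in all 12 panels, upward for Tff1, Ivl, Npy, Reg1, Slco2a1 and Krt79 and downward for Apoa1, Apoc2, Agmat, Ms4a10, Cyp3a11 and Cyp1a1.

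Of the 12 genes that fell most with RXRi, 11 rose over the same hours in DMSO. Agmat, an enzyme of the agmatinase family (chromosome 4, 141746672 to 141759263), had 6.68 and 6.31 (mouse 1) and 4.37 and 5.91 (mouse 2) RPKM at 6 h and 0.276 and 0.129 (mouse 1) and 0.252 and 0.247 (mouse 2) at 24 h. Every 24 h library was below 0.3 RPKM, and the change was -3.11 ± 0.12 log2 (adjusted p = 1.11e-09), whereas it rose by 0.75 ± 0.12 in DMSO. Ms4a10, a membrane protein of villus enterocytes, had 35.1 and 34.1 (mouse 1) and 32.4 and 40.2 (mouse 2) RPKM and then 3.38 and 3.59 (mouse 1) and 4.99 and 4.23 (mouse 2). Its change was -2.99 ± 0.11 with RXRi and 1.17 ± 0.11 with DMSO.

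Apoa1 encodes the main protein of high-density lipoprotein, which enterocytes secrete with fat (chromosome 9, 46228580 to 46230466). Its RPKM was 10.1 and 12.9 (mouse 1) and 7.54 and 9.49 (mouse 2) at 6 h and 1.69 and 1.65 (mouse 1) and 2.15 and 1.05 (mouse 2) at 24 h with RXRi. In DMSO it was 32.8 and 31.8 (mouse 1) and 67.5 and 60.7 (mouse 2) and then 629 and 557 (mouse 1) and 844 and 1061 (mouse 2). The RXRi groups fell (-2.30 ± 0.29, adjusted p = 2.14e-05) while the DMSO groups rose (4.03 ± 0.29), a difference of -6.33 ± 0.41 (adjusted p = 1.86e-07). Apoc2, the activator of lipoprotein lipase (chromosome 7, 19671579 to 19677941), had 28.4 and 26.0 (mouse 1) and 19.9 and 23.2 (mouse 2) RPKM at 6 h and 2.81 and 3.57 (mouse 1) and 3.53 and 3.41 (mouse 2) at 24 h, a change of -2.69 ± 0.15 against 2.50 ± 0.15 with DMSO. The predicted gene Gm44805 was also among the 12, at -2.74 ± 0.15. Its RPKM was 1.220 to 1.264 times that of Apoc2 in each of 16 libraries, so the reads of these 2 genes cannot be told apart here.

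Among genes of nitrogen metabolism, the urea cycle enzymes Cps1 and Otc fell (-2.71 ± 0.15 and -2.27 ± 0.17). Cps1 went from 14.9 ± 0.0756 to 1.92 ± 0.881 RPKM and Otc from 2.63 ± 0.339 to 0.135 ± 0.0760. Both rose in DMSO, by 0.88 ± 0.15 and 2.23 ± 0.17. The sulfotransferase Sult1b1 fell by 2.53 ± 0.12 (3.78 ± 0.495 to 0.235 ± 0.0332 RPKM) and rose by 2.49 ± 0.12 in DMSO. Lgals2, a galectin of the gut epithelium, fell by 2.49 ± 0.16 from a high level (447 ± 11.2 to 80.7 ± 23.6 RPKM). Gimd1 fell by 2.26 ± 0.057, and its level at 6 h was already 6.39 ± 0.405 RPKM with RXRi against 35.0 ± 4.17 with DMSO.

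Cyp3a11, a drug-metabolizing cytochrome P450 regulated by PXR and CAR (chromosome 5, 145854426 to 145879964), had 5.01 and 6.21 (mouse 1) and 4.01 and 5.37 (mouse 2) RPKM at 6 h and 0.585 and 0.512 (mouse 1) and 0.570 and 0.507 (mouse 2) at 24 h. Its libraries did not overlap between the times (-2.42 ± 0.25, adjusted p = 3.26e-06), and in DMSO it rose by 3.26 ± 0.25. Close relatives make the read assignment of Cyp3a genes uncertain. Cyp1a1, the classic target of the aryl hydrocarbon receptor, was the exception among the 12, since it fell in both series. It had 36.9 and 35.3 (mouse 1) and 36.3 and 37.8 (mouse 2) RPKM at 6 h and 6.47 and 8.28 (mouse 1) and 8.35 and 8.00 (mouse 2) at 24 h with RXRi. The change was -2.17 ± 0.11 with RXRi and -1.29 ± 0.11 with DMSO (1.53 ± 0.0587 to 0.336 ± 0.153 RPKM). The difference of -0.87 ± 0.16 was called (adjusted p = 0.000723). Over 31 alternatives its adjusted p ranged from 2.62e-06 to 0.871, and it was not called with a constant of 0.1 or with voom. In RPKM itself Cyp1a1 fell by a similar fold in both series. The constant of 0.5 shrinks the DMSO change at such low levels, so a larger fall with RXRi is not shown.

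Promoter windows, 250 bases before to 50 after the start, were taken from RefSeq (GRCm38.p6) for 47 of the 60 genes named by rank or panel. Sequences are shown for 2 genes that fell and 2 that rose, to show where the 2 motifs with the most unlike shares lie. Of 4 motifs searched on both strands, CAAAGTCCA is a binding sequence of HNF4, a nuclear receptor of enterocytes. It was present in 58 of 8906 tested genes with a window (0.651%), in 4 of 143 genes that fell at least 2-fold (2.80%) and in 1 of 154 that rose at least 2-fold (0.649%). All 4, Cyp3a11, Sult1b1, Gimd1 and Pipox (the last named after its values were seen), were among the 34 that fell with RXRi and rose with DMSO (11.8%). In Cyp3a11 the letters began 109 bases before the start, and at the first listed start of Gimd1 13 bases before it. In Sult1b1 and Pipox they lay after a listed start, by 25 and 15 bases, in Pipox on the opposite strand. TATAAA was present in 9.26% of tested genes, 26.0% of those that rose at least 2-fold and 15.4% of those that fell. GATAAG was present in 6.37%, 7.79% and 6.99%. A direct repeat of AGGTCA with 1 base between the copies, a binding sequence of several RXR heterodimers, was in 4 of 8906 and in none of those with 2-fold changes. These are shares of letters in a short window, with no test. The 150 bases before each start follow, 5′ to 3′ on the strand of the gene, with CAAAGTCCA and TATAAA in capitals, which do not overlap.
Cyp3a11 (chr5:145879855-145880004, minus strand): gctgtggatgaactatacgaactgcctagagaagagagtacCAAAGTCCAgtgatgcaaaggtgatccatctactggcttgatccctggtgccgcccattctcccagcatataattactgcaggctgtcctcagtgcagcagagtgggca
Gimd1 (chr3:132629696-132629845, plus strand): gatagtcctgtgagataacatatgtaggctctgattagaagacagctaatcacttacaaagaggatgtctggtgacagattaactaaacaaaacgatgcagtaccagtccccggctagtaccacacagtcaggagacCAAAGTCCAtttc
Ivl (chr3:92573736-92573885, minus strand): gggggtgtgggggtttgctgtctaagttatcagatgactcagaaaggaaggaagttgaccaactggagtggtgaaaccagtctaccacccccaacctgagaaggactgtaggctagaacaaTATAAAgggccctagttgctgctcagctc
Reg1 (chr6:78425833-78425982, plus strand): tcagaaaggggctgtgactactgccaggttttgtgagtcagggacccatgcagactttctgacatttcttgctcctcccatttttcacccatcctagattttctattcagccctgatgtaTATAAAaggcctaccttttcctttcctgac

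Vehicle cultures changed over the same hours as well, and in part in the opposite direction. In DMSO 2882 genes rose (25.4%) and 2785 fell (24.5%), with 516 at least 2-fold higher (4.54%) and 55 at least 2-fold lower (0.484%). With quantile normalization these calls were 2336 and 3902, with read-sum scaling 2388 and 3661, and with voom 2387 and 3766. The RXRi and DMSO intervals share the mice but no library. Of the genes called in both, 3177 moved the same way and 532 opposite ways. A further 2419 were called with RXRi only and 1958 with DMSO only, which does not by itself show that they differed. Across the 11361 genes the 2 log2 fold changes correlated at r = 0.377, a description over genes that are not independent.

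The difference between the 2 time changes was tested directly. It was positive for 2115 genes (18.6%) and negative for 1873 (16.5%), or 1584 and 2392 with read-sum scaling and 1617 and 2443 with voom. At a size of at least 2-fold, 104 were positive (0.915%) and 429 negative (3.78%). Of the 516 genes that at least doubled in DMSO, 443 (85.9%) had a negative difference. They were chosen for a high DMSO change, which the difference subtracts, so a surplus of negative differences and a lower RXRi median are built into this description. In RXRi 249 of these 516 rose, 76 fell and 191 passed in neither direction, with a median of 0.27 log2 against 1.60 in DMSO. Genes at least 2-fold higher in both series numbered 84, which is 38.7% of the RXRi set and 16.3% of the DMSO set. Genes at least 2-fold lower in both numbered 20, 10.5% of the RXRi set and 36.4% of the DMSO set. Of the 190 genes that fell at least 2-fold with RXRi, 130 also fell in DMSO, 38 rose and 22 passed in neither direction. Of the 217 that rose, 174 rose in DMSO, 2 fell and 41 passed in neither direction.

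**Figure D2:**
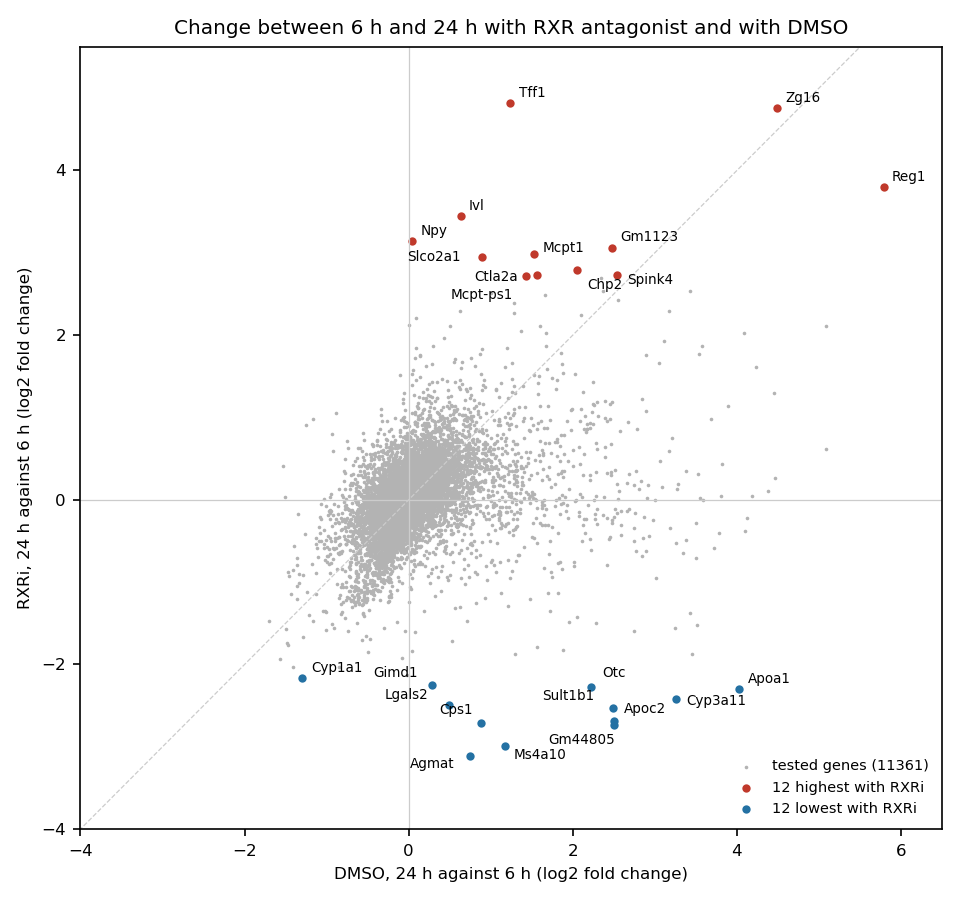
Log2 fold change between 6 h and 24 h of each of 11361 tested genes with DMSO (horizontal) and RXRi (vertical), with the 12 highest in red and the 12 lowest in blue; the dashed line marks equal change. Blue genes other than Cyp1a1 lie right of 0, where DMSO cultures rose, and Zg16 and Spink4 lie near the dashed line.

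The 10 most negative differences included Apoa1, Cyp3a11, Apoc2 with Gm44805 (whose reads cannot be told apart), Sult1b1 and Otc, described above. The others were Cyp3a25 (-5.33 ± 0.27), Cyp2d26 (-5.03 ± 0.22), the alcohol dehydrogenase Adh6a (-4.80 ± 0.25) and Guca2b, the precursor of the gut peptide uroguanylin (-4.80 ± 0.36). Guca2b went from 5.56 ± 0.757 to 1.65 ± 0.687 RPKM with RXRi and from 14.1 ± 3.28 to 139.7 ± 47.1 with DMSO. The 10 most positive differences included Tff1, Npy, Ivl and Slco2a1, described above, and the folate enzyme gene Aldh1l2 (2.13 ± 0.14). Trim29, another of them, had 42.5 and 43.3 (mouse 1) and 38.6 and 35.9 (mouse 2) RPKM at 6 h and 78.5 and 79.3 (mouse 1) and 71.0 and 73.9 (mouse 2) at 24 h with RXRi, a rise of 0.91 ± 0.15, and fell by 1.26 ± 0.15 in DMSO (difference 2.17 ± 0.21, adjusted p = 5.98e-06). Ly6d, a surface protein of squamous epithelia, rose by 0.98 ± 0.063 with RXRi and fell by 1.17 ± 0.063 with DMSO. Krt79, a keratin of the hair follicle duct, rose by 1.05 ± 0.096 and fell by 0.89 ± 0.096, and the actin-binding Avil differed by 2.11 ± 0.19. Mal, a raft protein of apical transport, fell by 1.53 ± 0.17 in DMSO and stood at 82.5 ± 12.6 and 109.6 ± 7.64 RPKM with RXRi. The RXRi change of Mal (0.41 ± 0.17, adjusted p = 0.0489) lost its call in 13 of 23 alternatives (adjusted p of 3.39e-06 to 0.174).

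Counts in the gene lists below are to be read beside the shares of all tested genes. With RXRi 29.8% rose and 24.2% fell, with DMSO 25.4% and 24.5%, and 18.6% of differences were positive and 16.5% negative. Absorptive enterocyte markers as a group rose in DMSO and went both ways with RXRi. Of 47 tested, 16 rose and 18 fell with RXRi (median -0.034, against 0.016 for all tested genes, but 0.15 without mouse 1), while 45 rose and none fell with DMSO (median 2.77). The difference was negative for 42 and positive for 3, which were Krt20, Nt5e and 2200002D01Rik (named after their values were seen). In bulk RNA, fewer cells of a type and less RNA per cell cannot be told apart. Apoa4, an apolipoprotein made with chylomicrons (chromosome 9, 46240696 to 46243459), had 6.79 and 9.34 (mouse 1) and 5.40 and 7.75 (mouse 2) RPKM at 6 h and 5.10 and 4.98 (mouse 1) and 9.25 and 5.73 (mouse 2) at 24 h with RXRi (-0.23 ± 0.23, interval -0.71 to 0.26, adjusted p = 0.418). The 2 RXRi times overlapped, whereas DMSO libraries rose by 4.13 ± 0.23 to 653 ± 188 RPKM. Sis, which encodes sucrase-isomaltase, a digestive enzyme, was at 10.3 ± 1.91 and 10.8 ± 3.48 RPKM (0.046 ± 0.18, adjusted p = 0.850), against a DMSO change of 3.81 ± 0.18. Alpi, the intestinal alkaline phosphatase, fell by 0.75 ± 0.11 with RXRi and rose by 1.84 ± 0.11 with DMSO. The amino acid transporter Slc7a9 fell by 1.13 ± 0.087 and rose by 1.70 ± 0.087.

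Other enterocyte markers rose with RXRi as well. Fabp1 and Fabp2, which bind fatty acids in the cytosol, rose by 2.54 ± 0.21 and 1.43 ± 0.076, against 3.43 ± 0.21 and 2.25 ± 0.076 in DMSO. Fabp1 reached 3062 ± 938 RPKM with RXRi and 7776 ± 2185 with DMSO. Rbp2, the retinol-binding protein of enterocytes, had 109 and 131 (mouse 1) and 119 and 175 (mouse 2) RPKM at 6 h and 548 and 534 (mouse 1) and 807 and 731 (mouse 2) at 24 h, a rise of 2.29 ± 0.11 against 3.17 ± 0.11. The differences of Fabp1 (-0.89 ± 0.29), Fabp2 (-0.82 ± 0.11) and Rbp2 (-0.88 ± 0.16) were called with the mouse as a block, but not without it. Over 31 alternatives their adjusted p reached 0.322, 0.0953 and 0.186, the lowest being 0.000449, 2.67e-07 and 2.22e-05. The summed RPKM of the list, which such abundant transcripts dominate, was 1865 to 2626 per library at 6 h and 4925 to 7404 at 24 h with RXRi, beside 2883 to 4537 and 17213 to 26532 with DMSO. The antimicrobial lectin Reg3b rose by 1.62 ± 0.14, and its relative Reg3g changed by -0.43 ± 0.11 (not called without mouse 1; adjusted p of 0.000732 to 0.309 over 23 alternatives), against 4.23 ± 0.14 and 2.59 ± 0.11 in DMSO.

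Of 18 structural genes of the brush border, the layer of microvilli, 11 rose and 1 fell with RXRi (8 and 1 with read-sum scaling, 8 and 4 with voom), and 11 rose and 1 fell with DMSO. Vil1, the actin bundler villin, rose by 0.95 ± 0.048 with RXRi against 0.48 ± 0.048, with a difference of 0.47 ± 0.068. Eps8, a capping protein of microvilli, rose by 0.79 ± 0.046 with RXRi and changed by 0.076 ± 0.046 with DMSO, which was not called (difference 0.71 ± 0.065). Eps8 started from an unlike level, 26.7 to 29.9 RPKM per library at 6 h with RXRi against 43.5 to 48.0 with DMSO. At 24 h the 2 series overlapped (47.1 to 51.3 and 45.1 to 52.3 RPKM). Pls1, the bundler plastin 1, rose by 0.39 ± 0.045 and 0.39 ± 0.045. Myo1a, the myosin that ties the actin core to the membrane, rose by 0.57 ± 0.070 against 1.20 ± 0.070. Espn, another actin bundler, rose by 1.52 ± 0.097 in DMSO and changed by -0.29 ± 0.097 with RXRi, a call lost in 6 of 22 alternatives (adjusted p of 0.000829 to 0.138). Of 22 genes of chylomicron and triglyceride handling, 15 rose with RXRi and 3 fell, the apolipoproteins Apoa1, Apob and Apoc2. With DMSO 18 rose and 2 fell, and the difference was negative for 15 and positive for 5 (10 and 3 without the mouse block, 12 and 3 without mouse 1). The lipid droplet protein Plin3 rose by 0.62 ± 0.048.

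**Figure D3:**
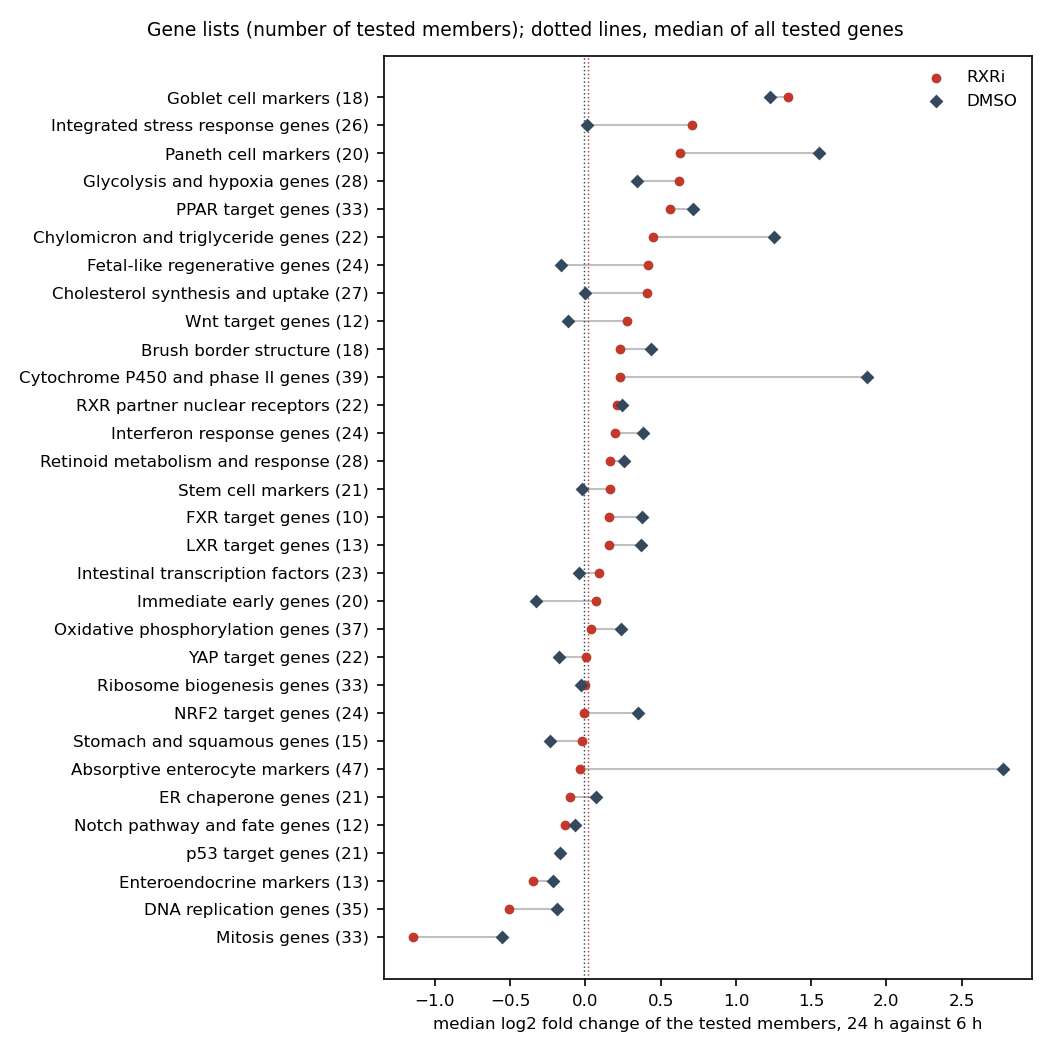
Median log2 fold change from 6 h to 24 h of each gene list with at least 10 tested members (number in brackets), with RXRi as red circles and DMSO as dark diamonds; dotted lines are the medians of all tested genes. Enterocyte markers (-0.034 against 2.77) and P450 and phase II genes (0.23 against 1.87) show the widest gaps, and mitosis genes lie lowest in both series.

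Cytochrome P450 and phase II genes, which modify and conjugate foreign compounds, showed a similar split. Of 39, 18 rose and 12 fell with RXRi (median 0.23), and 37 rose and 2 fell with DMSO (median 1.87). The difference was negative for 33 and positive for 1, Cyp27a1, the sterol 27-hydroxylase (1.52 ± 0.083 with RXRi against 0.89 ± 0.083). Cyp3a13 rose in both series (1.59 ± 0.081 and 1.68 ± 0.081, difference -0.097 ± 0.12, interval -0.35 to 0.15). Cyp2d26 fell from 2.66 ± 0.0628 to 0.603 ± 0.157 RPKM (-1.52 ± 0.16) while it rose by 3.51 ± 0.16 in DMSO.

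Mitosis genes fell in both series, and further with the antagonist. All 33 mitosis genes fell with RXRi (median -1.14) and all 33 with DMSO (median -0.55), and all 33 fell with RXRi in each of the 23 alternatives run. The difference was negative for 31 of 33. Mki67, the proliferation marker Ki-67 (chromosome 7, 135689784 to 135716361), had 61.5 and 60.5 (mouse 1) and 61.8 and 56.8 (mouse 2) RPKM at 6 h and 26.8 and 24.8 (mouse 1) and 23.5 and 24.0 (mouse 2) at 24 h with RXRi. It fell by 1.26 ± 0.066 with RXRi and fell by 0.56 ± 0.066 with DMSO, where it ended at 39.5 ± 1.52 RPKM. At 6 h the 2 treatments were close (60.2 ± 1.19 and 58.5 ± 1.48 RPKM). Among the members with the lowest p-values, the mitotic kinase Nek2 changed by -1.27 ± 0.042, the centromeric histone Cenpa by -1.28 ± 0.051, the survivin gene Birc5 by -1.18 ± 0.050 and the anaphase activator Cdc20 by -1.22 ± 0.053. The checkpoint gene Bub1b changed by -1.16 ± 0.052, against -0.42 ± 0.052 in DMSO. Of 35 DNA replication genes, 29 fell and none rose with RXRi (median -0.51), and 18 fell and 1 rose with DMSO (median -0.19). The DNA ligase Lig1 fell by 0.90 ± 0.057, the clamp loader subunit Rfc5 fell by 0.62 ± 0.056, and the ribonucleotide reductase subunits Rrm1 and Rrm2 changed by -0.72 ± 0.051 and -0.88 ± 0.069.

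**Figure D4:**
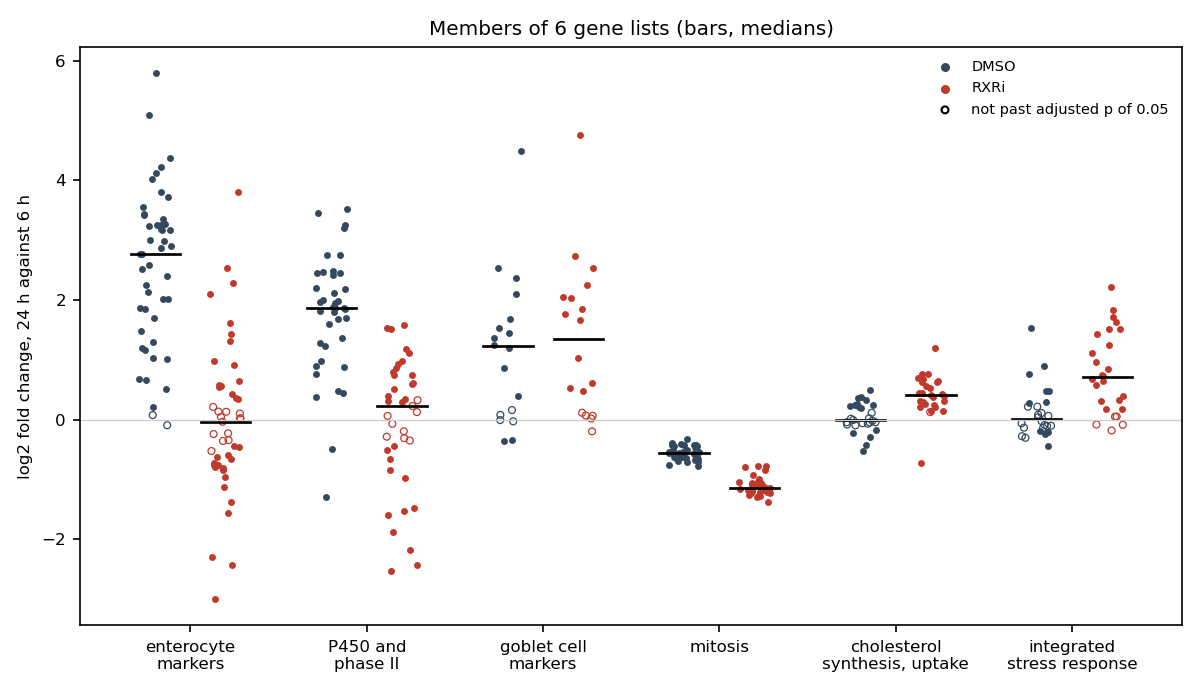
Log2 fold change from 6 h to 24 h of each tested member of 6 gene lists with DMSO (dark) and RXRi (red); filled points passed an adjusted p of 0.05, open points did not, and bars are medians. Mitosis genes all lie below 0 in both series, and enterocyte markers spread from -2.99 (Ms4a10) to 3.80 (Reg1) with RXRi.

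Of 18 goblet cell markers 13 rose and none fell with RXRi (median 1.34; 13 and 1 with read-sum scaling), and 12 rose and 2 fell with DMSO (median 1.23). The difference was positive for 5 and negative for 2. Muc2, the main mucin of the gut, had 0.306 and 0.130 (mouse 1) and 0.192 and 0.252 (mouse 2) RPKM at 6 h and 3.00 and 4.18 (mouse 1) and 3.80 and 3.74 (mouse 2) at 24 h. It rose by 2.54 ± 0.11 with RXRi and 2.37 ± 0.11 with DMSO, and the difference, 0.17 ± 0.16 (interval -0.18 to 0.52, adjusted p = 0.450), did not pass. Fcgbp, a mucus protein, rose by 2.05 ± 0.11 against 1.37 ± 0.11. Sytl2, a secretory granule protein, rose by 1.03 ± 0.12 with RXRi and changed by -0.34 ± 0.12 in DMSO.

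Of 20 Paneth cell markers 12 rose and 1 fell with RXRi (median 0.62; 6 and 1 without the mouse block), and 16 rose and 1 fell with DMSO (median 1.55). The difference was negative for 11 and positive for 3. Without mouse 1 the difference was negative for 2 and positive for 3, and leaving out any of 5 single libraries, 2 with RXRi and 3 with DMSO, left 4 to 7 negative. Lyz1, the lysozyme of Paneth cells, stood at 8.26 ± 0.723 and 6.18 ± 2.83 RPKM with RXRi (-0.46 ± 0.20, adjusted p = 0.0723) and rose by 1.53 ± 0.20 with DMSO. The stress-responsive regulator Nupr1, also on the list, rose by 1.51 ± 0.13 with RXRi and stood at 64.6 ± 18.8 and 58.9 ± 6.29 RPKM with DMSO. Mptx1, a mucosal pentraxin, rose by 1.42 ± 0.19 and 1.57 ± 0.19.

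Of 13 enteroendocrine markers 7 fell and 2 rose with RXRi (median -0.35; 5 and 4 without mouse 1), and 5 fell and 2 rose with DMSO (median -0.22). Among all tested genes 24.2% fell and 29.8% rose with RXRi. Cck, the gene of cholecystokinin, changed by -1.47 ± 0.18 with RXRi and -1.70 ± 0.18 with DMSO. The secretin gene Sct fell by 1.15 ± 0.11, from 2.27 ± 0.0765 to 0.745 ± 0.0569 RPKM, beside -0.22 ± 0.11 in DMSO. Chga, the granule protein chromogranin A, changed by -0.64 ± 0.12 and -0.86 ± 0.12, and its RXRi call was lost without the mouse block. Cpe, a protease that matures hormones, rose by 0.89 ± 0.060 against 0.21 ± 0.060. Of 16 tuft cell markers 6 were in the table, without Dclk1 and Il25, and only 2 were tested. These 2, Avil and Ltc4s, rose by 2.12 ± 0.13 and 1.06 ± 0.16 with RXRi. They reached 15.7 ± 0.781 and 2.20 ± 0.555 RPKM at 24 h. With DMSO 1 of the 2 rose, and the difference was called for 1, Avil.

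Of 21 stem cell markers 8 rose and 5 fell with RXRi (median 0.16), shares near those of all tested genes (29.8% and 24.2%), or 5 and 8 with read-sum scaling and with voom and 7 and 3 without mouse 1. With DMSO 5 rose and 6 fell. Olfm4, a secreted glycoprotein of the stem cell zone, stood at 3.27 ± 0.960 and 4.03 ± 2.17 RPKM with RXRi (0.18 ± 0.26, adjusted p = 0.591), while in DMSO it rose by 2.92 ± 0.26 (difference -2.74 ± 0.37, adjusted p = 9.07e-05). Sox9, a transcription factor of crypt cells, rose by 0.67 ± 0.071 with RXRi and fell by 0.43 ± 0.071 with DMSO. Clca3b fell by 2.13 ± 0.12 with RXRi and stood at 51.0 ± 5.10 and 50.1 ± 6.33 RPKM with DMSO. Soat1, which esterifies cholesterol, rose by 0.35 ± 0.058, and Zbtb38 fell in both series (-0.53 ± 0.084 and -0.37 ± 0.084). Lgr5 was not among the tested genes. Wnt target genes rose at 7 and fell at none of 12 with RXRi (5 and 2 with read-sum scaling and with voom), and rose at 2 and fell at 5 with DMSO. The difference was positive for 7 and negative for none. The cyclin Ccnd1 rose by 0.54 ± 0.044, Myc by 0.49 ± 0.065 and Axin2, a feedback inhibitor of Wnt signalling, by 0.30 ± 0.068. Sp5, a transcription factor induced by Wnt signalling, rose by 0.97 ± 0.14 against 0.53 ± 0.14. Myc stood at 56.0 ± 2.44 and 78.6 ± 1.75 RPKM with RXRi and at 78.2 ± 10.4 and 72.0 ± 8.27 with DMSO.

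Genes of a fetal-like, regenerative state of the gut epithelium rose at 16 and fell at 1 of 24 with RXRi (median 0.42), and rose at 7 and fell at 10 with DMSO (median -0.16). With quantile normalization the RXRi counts were 9 and 3. Clu, a secreted chaperone of regenerating cells, had 2732 and 2605 (mouse 1) and 2837 and 2590.0 (mouse 2) RPKM at 6 h and 4049 and 4551 (mouse 1) and 4211 and 4547 (mouse 2) at 24 h. It rose by 0.69 ± 0.078 (adjusted p = 8.23e-06, and 1.06e-10 to 0.0645 over 23 alternatives, not called with quantile normalization), and DMSO groups stayed at 2656 ± 271 and 2641 ± 169 RPKM. Il1rn, the interleukin-1 receptor antagonist, rose by 0.67 ± 0.071 with RXRi and fell by 0.39 ± 0.071 with DMSO. The tetraspanin gene Tspan8 rose by 0.69 ± 0.054 against 0.32 ± 0.054. Sprr1a, a cornified envelope protein with similar relatives, rose by 2.27 ± 0.12 against 1.28 ± 0.12. Ly6a, another marker of this state, stood at 475 ± 17.3 and 449.9 ± 65.3 RPKM (-0.085 ± 0.075, adjusted p = 0.359). Of 22 YAP target genes 6 rose and 4 fell with RXRi, no more than the shares of all tested genes (29.8% and 24.2%), with a median near 0 that changed sign with scaling. With DMSO 2 rose and 13 fell, and the difference was positive for 11 and negative for 3. Among them Ctgf, a matrix growth factor, rose by 1.53 ± 0.095, and Nuak2 fell by 0.81 ± 0.081.

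Stomach and squamous genes split evenly, 6 higher and 6 lower of 15 with RXRi, and 4 higher and 6 lower with DMSO. The difference was positive for 7 and negative for 1 (4 and 1 without the mouse block). The negative one was the gastrokine Gkn3 (named after its values were seen, -2.18 ± 0.27). Beside Tff1, Ivl and Sprr1a, Sprr2a1, which has near-identical relatives, rose by 1.01 ± 0.11 with RXRi and stood at 1688 ± 183 and 1617 ± 8.46 RPKM with DMSO. The basal keratin genes Krt5 and Krt14, named after their values were seen, fell in both series (-0.60 ± 0.11 and -1.04 ± 0.12 with RXRi, -0.41 ± 0.11 and -1.36 ± 0.12 with DMSO).

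Among genes of retinoid metabolism and response, 12 rose and 6 fell of 28 with RXRi (9 and 6 with read-sum scaling), and 16 rose and 5 fell with DMSO. The difference was negative for 14 and positive for 8 (12 and 3 without the mouse block). Among all tested genes 29.8% rose and 24.2% fell with RXRi. Tgm2, a transglutaminase induced by retinoic acid in many cells, had 3.99 and 4.01 (mouse 1) and 3.33 and 3.56 (mouse 2) RPKM at 6 h and 0.750 and 0.830 (mouse 1) and 0.772 and 0.879 (mouse 2) at 24 h. The times did not overlap, and its change was -1.69 ± 0.068 (adjusted p = 1.11e-09) against -0.47 ± 0.068 with DMSO. Isx, a homeobox repressor of carotenoid cleavage, rose by 1.37 ± 0.10 with RXRi and 0.94 ± 0.10 with DMSO, from 24.1 ± 5.87 and 67.9 ± 11.5 RPKM. Dhrs3, a retinaldehyde reductase, rose by 0.48 ± 0.095 against 1.53 ± 0.095 (difference -1.06 ± 0.13, adjusted p = 5.27e-05). Aldh1a1, which makes retinoic acid from retinaldehyde, stood at 26.2 ± 1.33 and 29.4 ± 7.86 RPKM with RXRi (adjusted p = 0.346) and rose by 2.81 ± 0.12 with DMSO. Cyp26b1, which degrades retinoic acid, was at 0.0230 ± 0.00891 and 0.0137 ± 0.00423 RPKM with RXRi, and Rarb was not among the tested genes.

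A list of 22 nuclear receptor genes held RXR, its partners and some others, such as Hnf4a and Hnf4g. Of these 11 rose and 2 fell with RXRi, and 11 rose and 5 fell with DMSO. Rxra stood at 11.3 ± 0.0779 and 13.1 ± 0.485 RPKM, a rise of 0.20 ± 0.058 (adjusted p = 0.00926) that lost its call with read-sum scaling (0.00367 to 0.203 over 23 alternatives), and it rose by 0.21 ± 0.058 with DMSO. Nr1h4, the bile acid receptor FXR, rose by 0.67 ± 0.066 against 0.24 ± 0.066. The vitamin D receptor gene Vdr fell by 0.57 ± 0.16 with RXRi and rose by 1.40 ± 0.16 with DMSO (difference -1.97 ± 0.22, adjusted p = 1.74e-05). Nr1i3, the xenobiotic receptor CAR, rose by 0.95 ± 0.084 against 2.08 ± 0.084, Ppara by 0.66 ± 0.076 against 0.94 ± 0.076, and Nr4a2, an orphan receptor, by 1.26 ± 0.11. Hnf4g, an enterocyte paralogue of HNF4A that does not pair with RXR, rose by 0.97 ± 0.12 against 1.72 ± 0.12.

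PPAR target genes, mostly of fatty acid oxidation, rose at 25 and fell at 1 of 33 with RXRi (median 0.56; 22 and 3 with read-sum scaling) and rose at 26 and fell at 2 with DMSO (median 0.72). Creb3l3, a transcription factor of lipid metabolism, rose by 1.87 ± 0.090 and 1.68 ± 0.090, and Txnip, an inhibitor of thioredoxin, by 1.02 ± 0.048 and 0.76 ± 0.048. The bifunctional peroxisomal enzyme Ehhadh rose less with RXRi, 0.56 ± 0.086 against 1.64 ± 0.086. Pdk4, which inhibits pyruvate dehydrogenase, was at 1.07 ± 0.00563 and 0.897 ± 0.0887 RPKM (-0.17 ± 0.075, adjusted p = 0.0780).

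LXR targets rose at 6 and fell at 2 of 13 with RXRi (3 and 2 with read-sum scaling, 2 and 1 without the mouse block). Among all tested genes 29.8% rose and 24.2% fell. The 2 subunits of the sterol exporter, Abcg5 and Abcg8, stood at 4.94 ± 1.05 and 3.00 ± 0.826 RPKM at 24 h with RXRi and at 62.3 ± 9.88 and 37.5 ± 5.58 with DMSO. Their changes were -0.50 ± 0.084 and 0.16 ± 0.087 (adjusted p = 0.146) with RXRi, and both rose with DMSO, by 1.72 ± 0.084 and 1.74 ± 0.087. The 2 genes overlap by 6710 bases on opposite strands, so some of their reads may be shared. Scd2, a fatty acid desaturase, rose by 0.56 ± 0.048 with RXRi and had 472 ± 3.66 and 479.6 ± 23.3 RPKM with DMSO. The phospholipid enzyme Lpcat3 rose by 0.50 ± 0.067 and 0.55 ± 0.067, and the apolipoprotein gene Apoe fell in both series (-0.68 ± 0.13 and -0.65 ± 0.13). Abca1, the cholesterol exporter, was low, with 0.0176 to 0.0502 RPKM per library at 6 h and 0.0151 to 0.0440 at 24 h with RXRi. With DMSO its libraries had 0.214 to 0.242 RPKM at 6 h and 0.270 to 0.572 at 24 h. Of 10 FXR targets 3 rose and 2 fell with RXRi, near the shares of all tested genes (29.8% and 24.2%), while 6 rose and 1 fell with DMSO. Fgf15, the gut hormone that lowers bile acid synthesis, fell by 0.59 ± 0.11 with RXRi (3.66 ± 0.285 to 2.26 ± 0.0454 RPKM). With DMSO its libraries had 4.49 to 6.65 RPKM at 6 h and 4.38 to 5.77 at 24 h. The difference of Fgf15 from DMSO was called (adjusted p = 0.0404), but not in 9 of 31 alternatives (adjusted p up to 0.201). Slc51a, which helps to pass bile acids into blood, fell by 0.83 ± 0.089 with RXRi and rose by 1.65 ± 0.089 in DMSO. Of 6 vitamin D and calcium genes 4 rose and none fell with DMSO, and with RXRi Vdr fell (2 fell with read-sum scaling and 3 with voom). The 2 that rose with RXRi were Cldn2, a claudin that passes cations (1.11 ± 0.044), and the calcium pump gene Atp2b1 (0.37 ± 0.078). Slc30a10, a manganese exporter of that list, had 0.0634 ± 0.00511 and 0.0215 ± 0.00329 RPKM with RXRi and rose by 1.68 ± 0.11 with DMSO. Fabp6, the ileal bile acid binding protein, had 0.113 ± 0.0597 and 0.0719 ± 0.0526 RPKM (adjusted p = 0.836).

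Cholesterol synthesis and uptake genes rose with the antagonist and went both ways with vehicle. With RXRi 25 of 27 rose and 1 fell (median 0.41), against 10 and 5 with DMSO (median -0.0057). The RXRi counts were 18 and 1 with quantile normalization and 17 and 1 with read-sum scaling. The difference was positive for 21 and negative for 1, Lbr, a sterol reductase of the nuclear envelope (named after its values were seen). Fdps, the farnesyl diphosphate synthase (chromosome 3, 89093588 to 89101959), had 183 and 180.0 (mouse 1) and 178 and 183 (mouse 2) RPKM at 6 h and 304 and 311 (mouse 1) and 315 and 307 (mouse 2) at 24 h. It rose by 0.77 ± 0.043 (adjusted p = 1.24e-08), and DMSO groups stood at 187 ± 3.31 and 185 ± 4.16. The sterol reductase Tm7sf2 rose by 1.19 ± 0.062 against 0.49 ± 0.062, the dehydrogenase Nsdhl by 0.77 ± 0.046 against 0.21 ± 0.046, and the lanosterol synthase Lss by 0.65 ± 0.047. The DMSO change of Lss, -0.067 ± 0.047, was not called.

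Genes of the integrated stress response, which cells induce when amino acids are scarce or translation is restrained, rose at 21 and fell at none of 26 with RXRi (median 0.71; 19 and 2 with read-sum scaling). With DMSO 7 rose and 4 fell (median 0.0075), and the difference was positive for 20 and negative for none. Aldh1l2, a mitochondrial folate enzyme (chromosome 10, 83487450 to 83534140), had 0.188 and 0.221 (mouse 1) and 0.188 and 0.272 (mouse 2) RPKM at 6 h and 2.64 and 2.80 (mouse 1) and 2.96 and 2.89 (mouse 2) at 24 h. It rose by 2.21 ± 0.10 (adjusted p = 3.36e-09) and was at 0.165 ± 0.105 RPKM with DMSO at 24 h. The hormone gene Stc2 rose by 1.83 ± 0.092 against 0.90 ± 0.092. The transcription factor Atf5 rose by 1.63 ± 0.095 and the asparagine synthetase Asns by 0.74 ± 0.044, with DMSO changes of 0.22 ± 0.095 and -0.025 ± 0.044 that were not called. Cth, which makes cysteine, rose in both series (1.51 ± 0.063 and 1.53 ± 0.063, difference -0.021 ± 0.089, interval -0.21 to 0.17). Of 21 chaperones and foldases of the endoplasmic reticulum, 4 rose and 8 fell with RXRi (2 and 12 with quantile normalization and with read-sum scaling, 4 and 5 without mouse 1), and the difference was negative for 8 and positive for none. Pdia6, a disulfide isomerase, fell by 0.44 ± 0.046, the secreted factors Manf and Creld2 of the same compartment fell (-0.37 ± 0.049 and -0.49 ± 0.078), while the isomerase P4hb rose by 0.47 ± 0.064 against 1.00 ± 0.064.

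With RXRi the other stress lists showed no common direction. NRF2 targets, which counter oxidants, rose at 9 and fell at 8 of 24 with RXRi (7 and 13 with read-sum scaling), beside 29.8% and 24.2% of all tested genes. With DMSO 13 rose and 5 fell. The difference was negative for 14 and positive for 4, beside 16.5% and 18.6% of all tested genes. Nqo1, a quinone reductase, fell by 0.94 ± 0.053, the thioredoxin reductase Txnrd1 fell by 0.57 ± 0.047, the ferritin gene Fth1 fell by 0.49 ± 0.057 and rose by 0.65 ± 0.057 in DMSO, and the malic enzyme Me1 rose by 0.94 ± 0.054. Of 21 p53 targets 9 fell and 1, Btg2, rose (0.35 ± 0.049) with RXRi, and 14 fell with read-sum scaling and 5 without the mouse block. DMSO cultures were alike, with 9 lower and 2 higher, and the difference was positive for 3 and negative for 3. The cell cycle inhibitor Cdkn1a fell in both series (-0.52 ± 0.067 and -0.53 ± 0.067), as did Mdm2, the ligase that degrades p53 (-0.51 ± 0.053 and -0.39 ± 0.053). Sesn1, a sestrin of nutrient sensing, rose by 1.23 ± 0.083 with DMSO and had 3.21 ± 0.259 and 3.36 ± 0.369 RPKM with RXRi. Of 20 immediate early genes 4 rose and 4 fell with RXRi, no more than the shares of all tested genes (29.8% and 24.2%). Their median was 0.068, but negative with read-sum scaling and with voom. With DMSO 1 rose and 11 fell. The difference was positive for 12 and negative for none (5 and none without the mouse block). The factor Klf4 rose by 1.19 ± 0.094 and the phosphatase gene Dusp6 by 0.78 ± 0.052.

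Glycolysis and hypoxia genes rose at 23 and fell at none of 28 with RXRi (median 0.62; 23 and 1 with read-sum scaling) and rose at 17 and fell at 5 with DMSO (median 0.34). Vegfa, the vascular growth factor, rose by 1.45 ± 0.076 against 0.47 ± 0.076, and Egln3, an oxygen sensor, by 0.90 ± 0.063 against 0.50 ± 0.063. Pfkp, a phosphofructokinase, rose by 0.73 ± 0.048 against 0.45 ± 0.048. Ndrg1, a hypoxia-responsive gene, rose by 1.34 ± 0.063 to 366 ± 28.3 RPKM, and had been at 144 ± 5.37 against 50.1 ± 1.09 RPKM with DMSO at 6 h. Slc2a1, the glucose transporter GLUT1, rose by 0.81 ± 0.067 with RXRi and fell by 0.55 ± 0.067 with DMSO, and the hexokinase gene Hk1 rose by 0.56 ± 0.070 and fell by 0.43 ± 0.070. Oxidative phosphorylation genes rose at 6 and fell at 4 of 37 with RXRi, but at 1 and 16 with quantile normalization and 2 and 16 with read-sum scaling, so no direction is given. Without mouse 1 the counts were 8 and 1, and without mouse 2 they were 1 and 10. In DMSO 26 rose and none fell, and the difference was negative for 18 and positive for none (10 without mouse 1). Ndufs1, a core subunit of complex I, fell by 0.23 ± 0.045 with RXRi and rose by 0.19 ± 0.045 with DMSO, and Ndufa1, a smaller subunit, rose by 0.45 ± 0.10 and 0.54 ± 0.10. Ribosome biogenesis genes fell at 11 and rose at 4 of 33 (16 and 2 with read-sum scaling, 7 and 6 without mouse 1). Among all tested genes 24.2% fell and 29.8% rose. The nucleolar genes Npm1 and Ncl fell (-0.70 ± 0.092 and -0.54 ± 0.075).

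Of 24 interferon response genes 10 rose and 2 fell with RXRi, and 17 rose and none fell with DMSO. The difference was negative for 8 and positive for 3, or 2 and 4 without mouse 1. Among all tested genes 29.8% rose and 24.2% fell with RXRi. The class I histocompatibility genes H2-D1 and H2-K1, whose similar sequences make their assignment uncertain, rose by 0.96 ± 0.051 and 0.94 ± 0.053 with RXRi against 0.31 ± 0.051 and 0.42 ± 0.053. Ifi35 rose by 0.64 ± 0.054 and 0.70 ± 0.054. The class I loading factor Tapbp rose by 1.04 ± 0.057 against 0.55 ± 0.057. Beside shares of 24.2% and 29.8% of all tested genes, Notch pathway genes fell at 6 and rose at 3 of 12 (3 and 2 without mouse 2). Among them Notch1 fell by 0.76 ± 0.095, and the ligand gene Dll1 fell by 0.50 ± 0.12 with RXRi and rose by 0.42 ± 0.12 with DMSO. Of 23 intestinal transcription factors 9 rose and 5 fell with RXRi (9 and 2 without mouse 1), and 8 rose and 8 fell with DMSO. All tested genes had shares of 29.8% and 24.2% with RXRi and 25.4% and 24.5% with DMSO. Foxa3 rose by 0.53 ± 0.089 with RXRi and fell by 0.36 ± 0.089 with DMSO. Maf, a factor of villus enterocytes, had 0.0547 ± 0.0297 and 0.0696 ± 0.00308 RPKM with RXRi and rose by 1.24 ± 0.12 with DMSO.

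**Figure D5:**
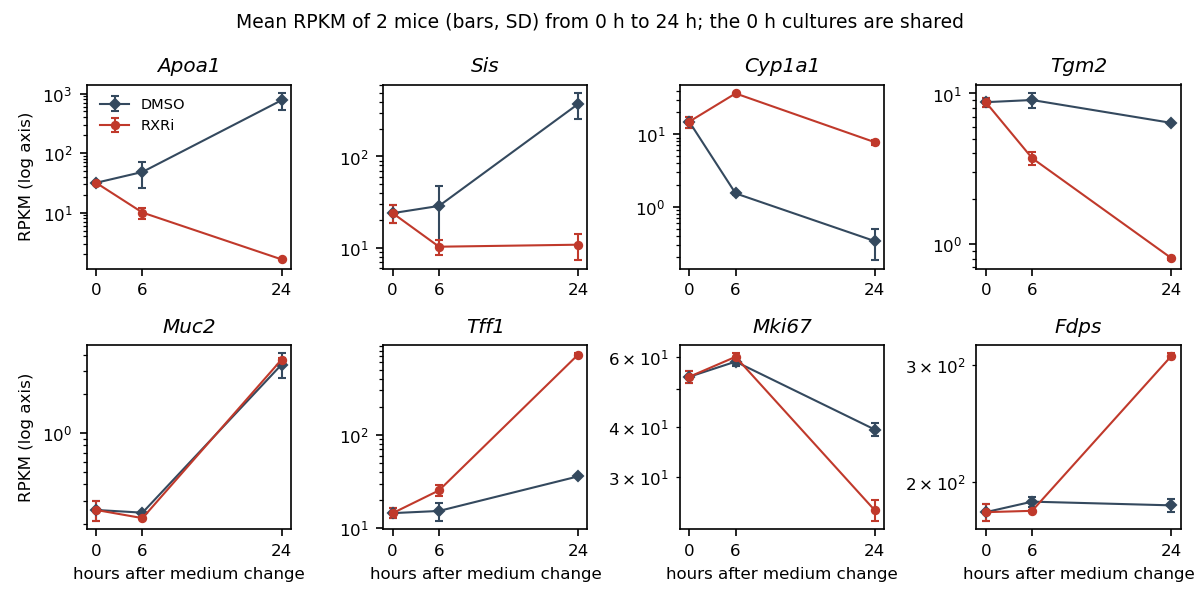
Mean RPKM ± SD of 2 mice on log axes before treatment (0 h, the same cultures for both lines) and at 6 h and 24 h with DMSO (dark) and RXRi (red). Apoa1 and Sis rise with DMSO and not with RXRi, Cyp1a1 is 36.6 RPKM with RXRi at 6 h against 14.9 at 0 h, and the Muc2 lines nearly coincide.

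Levels before treatment show where the interval began. Apoa1 was 31.6 ± 0.679 RPKM at 0 h, 10.0 ± 2.11 at 6 h with RXRi and 1.64 ± 0.0470 at 24 h. Cyp1a1 was 14.9 ± 2.54 RPKM at 0 h, so its fall between 6 h and 24 h with RXRi started from a level above that before treatment and ended below it. With DMSO it was 1.53 ± 0.0587 RPKM at 6 h. Tgm2 was 8.76 ± 0.607 RPKM at 0 h, Tff1 14.5 ± 1.76 and Mki67 53.6 ± 1.91. Changes from 0 h were not tested here.

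The interval with RXRi was also set against those with the retinoic acid isomers, whose dose of 10 µM differs from the 5 µM of RXRi. These comparisons use the same RXRi libraries as the comparison with DMSO. The time changes of RXRi and 9cisRA differed at 2788 genes (24.5%), 1273 more positive and 1515 more negative with RXRi. With quantile normalization the counts were 1697 and 1325, with read-sum scaling 1865 and 1348, and with voom 2005 and 1342. Those of RXRi and atRA differed at 2869 genes (25.3%), 1325 and 1544, or 1812 and 1332 with quantile normalization. Apoa1 reached 1078 ± 298 RPKM at 24 h with 9cisRA and 680.5 ± 289 with atRA, from 58.5 ± 15.9 and 45.4 ± 22.1 at 6 h. Tff1 reached 52.0 ± 11.5 and 40.2 ± 6.02 RPKM, against 725 ± 20.8 with RXRi. Fgf15 was 41.3 ± 0.264 and 56.3 ± 0.304 RPKM at 24 h, with differences in time change of -1.63 ± 0.16 and -2.19 ± 0.16. Cyp26b1 was 5.77 ± 1.40 and 11.9 ± 1.74 RPKM at 24 h, against 0.0137 ± 0.00423 with RXRi. Mki67 ended at 23.5 ± 3.59 and 25.1 ± 0.517 RPKM, near its level with RXRi (24.8 ± 1.46). The differences in its time change were 0.083 ± 0.093 (interval -0.12 to 0.28) and -0.065 ± 0.093 (interval -0.27 to 0.14), and neither passed the test.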

How the data were processed

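Illumina mRNA libraries of 2 cultures in duplicate (18 averaged values over 9 conditions, from 36 libraries) were used. The authors deposited RPKM values for 12652 genes; STAR 2.5.2b, bcl2fastq 2.17 and build mm10 are named in the submitters' processing notes, while the counting, its strand setting and the way the RPKM divisor was set are not given in the sources used here. The deposited RPKM steps gave whole reads within 0.05 reads for 100% of genes, 19600000 to 30700000 per library (rounded). The divisor followed a size factor (SD of the log ratio 0.661%) more closely than the read sum (5.47%).

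Genes with at least 1 RPKM in 4 or more libraries were kept (11361), log2(RPKM + 0.5) was averaged over duplicates, and limma 3.58.1 in R 4.3.3 was fitted over all 9 conditions with the mouse as a block and a trended prior (8 residual and 5.01 prior degrees of freedom). P-values were adjusted by the Benjamini-Hochberg method over all tested genes, with a threshold of 0.05, and the steps were tested on simulated data. The block has its basis in the labels, which give each condition the same 2 mice; differences between the mice correlated between conditions with a median r of 0.44 (0.037 to 0.66 over 36 pairs, 0.25 between the RXRi groups). Differences between duplicate numbers did not (median -0.049), so these numbers were not used as pairs in the main fit. A count test, limma voom on the recovered reads, called 6771 genes for RXRi.

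A few items are not reported here. Genes were named by rule: the 12 highest and 12 lowest changes with RXRi, the 10 highest and 10 lowest differences from DMSO, the 6 largest changes of opposite sign, up to 6 members of each list by p-value, and a panel of single genes. All of these had to pass the adjusted p where a rank was used. The genes, lists and tests were chosen with earlier results of these data known. Scaling, constants, filters, priors, blocking and left-out libraries were varied. Gene positions are from GENCODE M21 and promoters from RefSeq, both on GRCm38.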

Additional observations from a re-analysis of the deposited data

Results flagged for a closer look

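Among 48 sets of 4 RXRi libraries, from the 24 genes that changed most at the 2 times, 6 held a library far from the other 3. This was measured as its gap to the nearest over the whole range, above Dixon's 95% critical value for 4 samples. Chance passes that value in about 1 of 20 sets of independent values. Here each set held duplicates of 2 mice and the genes shared libraries, so that rate does not apply. At 6 h the ratio was 0.843 for Npy and 0.838 for Ctla2a, both for a high library of mouse 2 (0.120 RPKM for Npy and 3.05 for Ctla2a). It was 0.842 for Spink4 (33.5 RPKM), 0.92 for Sult1b1 (4.81 RPKM) and 0.885 for Gimd1 (7.19 RPKM), each for the other library of mouse 2. At 24 h it was 0.857 for Gm44805, for a low library of mouse 1 (3.43 RPKM). In all 6 genes the libraries of the 2 times did not overlap.

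The change over time was called with opposite signs in RXRi and DMSO at 532 genes. The test of the difference passed at all of them, which follows from the choice, since both changes passed with opposite signs and equal SE. The 6 with the largest differences were named by a rule that asks for opposite signs, so their signs restate the choice. The difference was -6.33 log2 for Apoa1, -5.68 for Cyp3a11, -5.33 for Cyp3a25, -5.24 for Gm44805, -5.19 for Apoc2 and -5.03 for Cyp2d26. All 6 rose with DMSO and fell with RXRi, as did Agmat, Ms4a10, Cps1, Otc and Sult1b1, while Trim29, Ly6d and Krt79 rose with RXRi and fell with DMSO. The reads of Gm44805 and Apoc2 cannot be told apart, nor can those of the close relatives Cyp3a11 and Cyp3a25 be assigned with certainty.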

How the results depend on the processing

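The number of genes called between 6 h and 24 h with RXRi (6128) ranged from 5284 without mouse 2 to 6771 with voom. None of the 167 named genes called with RXRi changed sign in any alternative. Apart from the panel, these genes were chosen by rank or p-value in the same libraries. Those ranked by change also had to move the same way in both mice, so stable signs are in large part built in. Genes that were not called could change sign: Sis turned negative with read-sum scaling, with voom and without mouse 2, among others. At an adjusted p below 0.01 the counts were 4632 for RXRi and 4122 for DMSO, and those for the differences from DMSO, 9cisRA and atRA fell to 2577, 1782 and 1829. Leaving out 1 library gave 6040 to 6181 genes for RXRi, 5510 to 5757 for DMSO, and 3743 to 4146, 2567 to 2910 and 2628 to 3038 for the 3 differences. Without the mouse as a replicate block these 5 counts were 5357, 4843, 3025, 1988 and 2116. With all 36 libraries and the mouse and duplicate number as a replicate block they were 6770, 6330, 4764, 3700 and 3675, which treats duplicates of a mouse as independent. Genes 2-fold lower with RXRi (190) numbered 466 with voom and 290 with a constant of 0.1, and those 2-fold lower with DMSO (55) numbered 129 with voom and 96 with a constant of 0.1. With a mean of at least 5 RPKM those 2-fold higher numbered 142 for RXRi (217) and 327 for DMSO (516), and the 2-fold differences from DMSO 62 positive (104) and 251 negative (429). Of 192 named genes, 167 were called with RXRi, and 18 of these lost the call in at least 1 alternative. For the difference from DMSO 154 were called and 35 lost the call, 22 of them without the block and 18 without mouse 1. With 2 mice per group, the precision rests on a spread pooled over conditions, and changes of genes near 1 RPKM depend on the constant.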
